A study of Mus musculus with 6 samples.

Results

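The 10 genes described here, Clock, Arntl, Per1, Per2, Per3, Cry1, Cry2, Nr1d1, Nr1d2 and Dbp, belong to the circadian clock, and they were picked by symbol. All 10 were found among the 55401 genes of each deposited table. Newly made RNA was captured by the Click-iT method in iMEF cells, immortalised mouse embryo fibroblasts, without treatment and around 4 or 8 h of dTAG-13. In this study the labelled nucleoside was present from before each of these times until after it, so the cells were harvested later than the named hour. There were 2 libraries of untreated cells, 2 of cells given dTAG for 4 h and 2 of cells given dTAG for 8 h. In all 6, untreated ones included, floxed Ash2l had been inactivated by Cre-ER, and the cells lived on a human ASH2L that carried the FKBP12 F36V tag and came from a lentiviral construct. dTAG-13 ties that tag to a ubiquitin ligase, which removes the protein. Such cells are clones grown out after transduction, so what holds for one line need not hold for other fibroblasts. No library of cells without the tagged protein was given dTAG here, so an effect of the compound cannot be told apart from an effect of losing ASH2L.

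The mammalian clock is a loop of transcription and translation. CLOCK and BMAL1 (the product of Arntl) bind E-boxes and switch on the Per, Cry, Nr1d and Dbp genes, and PER and CRY proteins return to the nucleus and hold CLOCK and BMAL1 down. A side arm runs through REV-ERBα and REV-ERBβ (from Nr1d1 and Nr1d2), which repress Arntl through ROR elements, and through DBP, which acts on D-boxes. Fibroblasts in culture run this loop cell by cell, and fresh serum or glucocorticoid can set the cells in step, so the hour of the clock at harvest bears on every level below. The sources used here do not say when untreated cells were labelled relative to the treated ones, and time under dTAG and clock time cannot be told apart.

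The letters by which these proteins find the genes are shown first, as background. The members are grouped by the roles of their proteins, not by these letters. RefSeq promoters (build GRCm38.p6, 250 bases before to 50 after a start site, 300 bases in all) were at hand for 9 of the 10 genes, 13 promoters in all. They were searched on both strands for the E-box CACGTG, the D-box TTATGTAA and AGGTCA, which reads as TGACCT when it lies on the other strand. AGGTCA is only the core of a ROR element, and the bases around it were not scored. In this paragraph and the list below, ROR element therefore names a match to these letters and no more. No match overlapped another. Matches lay in 6 of the 13 promoters. Per3 held 2 D-boxes, Cry1 and Per1 an E-box each, and Arntl, Nr1d2, Per1 and Clock a ROR element each. Of all 32851 promoters in the table, 7.15% held an E-box, 0.938% a D-box and 16.3% a ROR element. The promoters given for Cry2, Dbp and Nr1d1 held none of these letters in this window, from which nothing follows about the factors. Each stretch below reads 5′ to 3′ on the strand of the gene, with the match in capitals and up to 20 bases on each side.
Per3, first D-box, at -205 from the start site: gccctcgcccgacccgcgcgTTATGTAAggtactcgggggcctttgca
Per3, second D-box, at -158: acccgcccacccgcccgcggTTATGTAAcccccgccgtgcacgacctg
Cry1, E-box, at -60: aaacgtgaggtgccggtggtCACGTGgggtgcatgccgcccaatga
Per1, E-box, at -166: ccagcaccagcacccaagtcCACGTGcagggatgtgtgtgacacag
Per1, ROR element on the other strand, at -137: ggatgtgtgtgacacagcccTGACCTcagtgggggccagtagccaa
Nr1d2, ROR element, at -77: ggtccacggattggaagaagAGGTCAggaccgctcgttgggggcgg
Arntl, ROR element, 31 bases after the start site: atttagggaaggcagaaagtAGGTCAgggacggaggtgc
Clock, ROR element on the other strand, at -119 of an inner start site: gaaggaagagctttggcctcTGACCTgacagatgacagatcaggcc
The promoters were chr4:151044616-151044915 (minus strand) for Per3, chr10:85185005-85185304 (minus strand) for Cry1 and chr11:69098699-69098998 (plus strand) for Per1. They were chr14:18239057-18239356 (minus strand) for Nr1d2, chr7:113207261-113207560 (plus strand) for Arntl and chr5:76303453-76303752 (minus strand) for Clock.

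The deposited tables give no value for a single library, only the mean over the 4 libraries of each comparison. Each of those means is a sum of 4 fixed steps times whole numbers, and the whole numbers were recovered from both tables together, with a solution for 23783 of the 23783 genes that had a mean above 0. For the 10 clock genes a full search found a single solution each. Levels below are these numbers divided by size factors computed over the 6 libraries, and are called normalised counts. The recovered numbers had gaps in 4 of the 6 libraries, so they are not plain read counts and no counting error is given for them. Within a group, library a is the one with the larger sum of recovered numbers and library b the other, and the letters pair nothing across groups. The sums of the recovered numbers were 15750470 and 11154154 in untreated cells, 26658555 and 18341450 at 4 h, and 37505483 and 26366737 at 8 h. Over the 10036 genes whose mean reached 100, Pearson's r of log2 values was 0.951 to 0.957 for the 3 pairs of libraries of one group and 0.952 to 0.957 for the 12 pairs of different groups.

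The cells were checked against marker genes. The 9 fibroblast markers summed to between 338599 and 356552 normalised counts in every library. The 4 epithelial markers summed to between 1013 and 1209. The 3 endothelial markers summed to between 8788 and 10248. Their means over the 6 libraries were 6446 for Pecam1, 2954 for Cdh5 and 155 for Kdr. Pecam1 and Cdh5, which mark endothelium, thus lay within the range of single fibroblast markers, from 1632 for Pdgfra to 122310 for Fn1. Most of the fibroblast sum came from Fn1, Vim (109103) and Col3a1 (86801). The 3 leukocyte markers summed to 210 and 265 in untreated cells, to 105 and 133 at 4 h and to 102 and 88.8 at 8 h, and the 3 neuronal markers to 473 and 328, 217 and 279, and 193 and 189 in the same order, with Rbfox3 at 0 throughout. The leukocyte markers did not move together. Ptprc had 0 and 33.6 normalised counts in untreated cells and 45.9 and 35.4 at 8 h. Adgre1 had 77.6 and 166 against 22.7 and 14.1 in the same groups, and Cd68 had 133 and 65.3 against 33.2 and 39.3. The neuronal sum was Tubb3 alone, but for 39.2 of Neurod1 in untreated library b. The lower leukocyte and neuronal sums in treated cells are small beside the fibroblast sum, and their part in the results below was not tested. In bulk RNA a smaller number of cells that use a gene and less RNA per cell cannot be told apart.

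Ash2l, the mouse gene whose protein the tagged one replaces, is no check of the labels, because dTAG acts on protein and the construct is human. Its row held 1119 and 948 normalised counts at 4 h and 951 and 1220 at 8 h, against 922 and 729 in untreated cells.

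Clock, which encodes the histone acetyltransferase partner of BMAL1 (ENSMUSG00000029238, chr5:76209868-76304792, minus strand, GRCm38 here and below), was the steadiest of the 10. It had 1822 and 1899 normalised counts in untreated cells, 1716 and 1920 at 4 h, and 2165 and 1787 at 8 h. Groups overlapped at both times, and the log2 fold change was -0.04 ± 0.15 (SE) at 4 h and 0.08 ± 0.15 at 8 h against untreated cells. The 95% interval ran from -0.38 to 0.30 at 4 h and from -0.26 to 0.43 at 8 h, so a doubling or a halving of Clock relative to the other genes lies outside it. With no size factors, a scale on which the median gene shifts upward, the 8 h value was 1.33. Leaving out library a at 4 h gave 0.05, and leaving out library a at 8 h gave -0.05.

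Arntl, the gene of BMAL1 (ENSMUSG00000055116, chr7:113207465-113314126, plus strand), had 293 and 451 normalised counts in untreated cells, 250 and 291 at 4 h, and 222 and 281 at 8 h. All 4 treated libraries lay below both untreated ones, though the upper library at 4 h missed the lower untreated one by little. The log2 fold change was -0.43 ± 0.36 (SE) at 4 h and -0.54 ± 0.36 at 8 h, with intervals from -1.26 to 0.40 and from -1.39 to 0.31. Neither passed the test (limma, Benjamini-Hochberg adjusted p = 0.966 and 0.888). Without untreated library b, the higher of the pair, the values were -0.12 and -0.23, and without untreated library a -0.75 and -0.85.

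**Figure D1:**
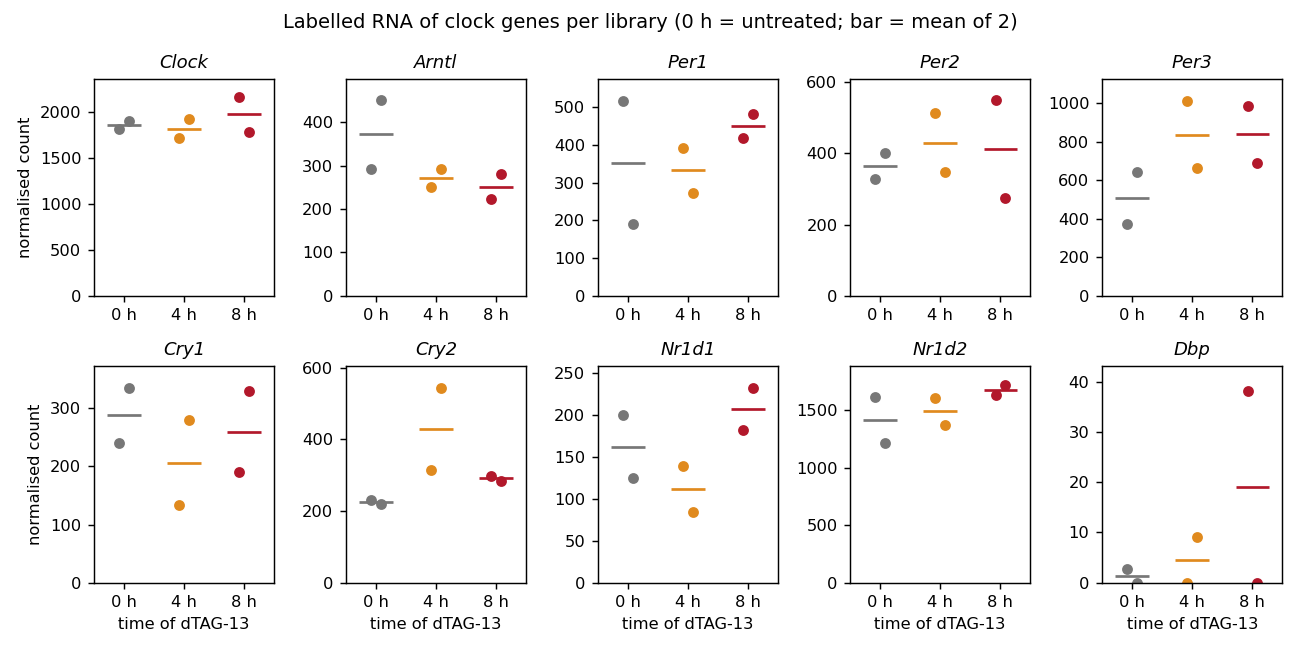
Normalised counts of the 10 clock genes (vertical axis, from 0, with its own scale for each gene) in untreated cells (0 h) and after 4 and 8 h of dTAG-13. Each point is 1 of 2 libraries and each bar the mean of the 2. Per3 and Cry2 lay higher and Arntl lower in all 4 treated libraries than in the 2 untreated ones, while the points of Clock overlap. Both times share the untreated pair, and how many of all genes show such a pattern was not counted. At 4 h alone 16.2% of all genes tested lay higher without overlap and 16.3% lower.

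The Per genes encode the PERIOD proteins, which carry the repressor complex into the nucleus. Per1 (ENSMUSG00000020893, chr11:69095217-69109960, plus strand) had 517 and 190 normalised counts in untreated cells, 393 and 273 at 4 h, and 420 and 482 at 8 h. All 4 treated libraries lay between the untreated ones, whose log2 difference of 1.44 was the widest within a group for any member other than Dbp. The log2 fold change was 0.06 ± 0.49 (SE) at 4 h and 0.52 ± 0.47 at 8 h. Without untreated library b it was -0.65 at 4 h and -0.20 at 8 h. Without 4 h library a it was -0.20 at 4 h.

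Per2 (ENSMUSG00000055866, chr1:91415982-91459324, minus strand), whose loss disturbs daily rhythm in mice, had 327 and 401 normalised counts in untreated cells, 512 and 348 at 4 h, and 550 and 275 at 8 h. At 8 h 1 library was above and 1 below both untreated ones. Its log2 fold change was 0.22 ± 0.33 (SE) at 4 h and 0.10 ± 0.39 at 8 h, and leaving out 1 library at a time moved the value between -0.06 and 0.49 at 4 h and between -0.39 and 0.60 at 8 h.

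Per3 (ENSMUSG00000028957, chr4:151003652-151044665, minus strand), the member with both D-boxes shown above, had 374 and 645 normalised counts in untreated cells, 1011 and 663 at 4 h, and 988 and 690 at 8 h. All 4 treated libraries lay above both untreated ones, by little for the lower library at each time. The fold change was 1.66 at 4 h (log2 0.74 ± 0.33, SE, interval from -0.02 to 1.49) and 1.68 at 8 h (log2 0.75 ± 0.32, interval from -0.01 to 1.51). The unadjusted p was 0.0549 at 4 h and 0.0513 at 8 h, and adjusted over all genes it came to 0.966 and 0.885 (limma, Benjamini-Hochberg). Since both comparisons use the same 2 untreated libraries, they do not repeat each other. Leaving out 1 library at a time moved the log2 value between 0.34 (without untreated library a) and 1.13 (without untreated library b) at 4 h, and between 0.36 and 1.14 at 8 h for the same libraries. Per3 lies inside the span of Camta1, a gene of a calmodulin-binding transcription activator on the same strand, with 0 shared exon bases. Camta1 had 670 and 517 normalised counts at 4 h and 569 and 448 at 8 h, against 961 and 869 in untreated cells, with a log2 fold change of -0.85 ± 0.23 (SE) at 8 h (unadjusted p = 0.00648, limma adjusted p = 0.885). Its values, looked up because of the overlap, lay on the other side of untreated cells from those of Per3.

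The Cry genes encode the cryptochromes, the part of the repressor complex that binds CLOCK and BMAL1 directly. Cry1 (ENSMUSG00000020038, chr10:85131700-85185064, minus strand) had 241 and 336 normalised counts in untreated cells, 133 and 280 at 4 h, and 191 and 329 at 8 h. Groups overlapped at both times and the libraries within each group differed widely, by a log2 difference of 1.07 at 4 h. The log2 fold change was -0.56 ± 0.47 (SE) at 4 h and -0.18 ± 0.41 at 8 h. It was 0.06 at 8 h without untreated library b and 0.21 without 8 h library a. At 4 h it was -0.02 without 4 h library a and -1.09 without 4 h library b.

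Cry2 (ENSMUSG00000068742, chr2:92403646-92434043, minus strand) had 230 and 218 normalised counts in untreated cells, 315 and 544 at 4 h, and 298 and 284 at 8 h. All 4 treated libraries lay above both untreated ones, and the pairs in untreated cells and at 8 h were tight. The log2 fold change of Cry2 was 0.88 ± 0.38 (SE) at 4 h, a 1.84-fold higher mean, with an interval from 0.01 to 1.75 and an unadjusted p of 0.0476 that became 0.966 after adjustment over all genes (limma, Benjamini-Hochberg). At 8 h it was 0.38 ± 0.34, with an interval from -0.43 to 1.18. Without 1 of the 4 h libraries the 4 h value lay as low as 0.48 and, without the other, as high as 1.28. The antisense gene D930015M05Rik, which shares 295 exon bases with Cry2, was at 0 in all 6 libraries.

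Summed over Per1, Per2, Per3, Cry1 and Cry2, the normalised counts were 1689 and 1790 in untreated cells, 2364 and 2109 at 4 h, and 2447 and 2061 at 8 h. All 4 treated sums lay above both untreated ones. The sums hold Per3 and Cry2, already seen to lie higher in all 4 treated libraries, so they are no further result. The sums over Per1, Per2 and Cry1 alone, a split made after these values were seen, were 1085 and 927 in untreated cells, 1038 and 901 at 4 h, and 1161 and 1086 at 8 h. These sums overlapped at 4 h and were nearly equal in the closest pair of libraries at 8 h. Of these 5 genes, 4 had a log2 fold change above 0 at 4 h and 4 at 8 h, in both cases all but Cry1, with medians of 0.22 and 0.38, and 0 passed the test at either time.

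The REV-ERB genes encode heme-binding nuclear receptors without activating function. Nr1d1 (ENSMUSG00000020889, chr11:98767932-98775333, minus strand) had 200 and 125 normalised counts in untreated cells, 139 and 84.7 at 4 h, and 183 and 233 at 8 h. Both treated groups overlapped with untreated cells, and the log2 fold change was -0.54 ± 0.56 (SE) at 4 h and 0.38 ± 0.46 at 8 h. The 2 libraries at 8 h lay above the 2 at 4 h, by 0.92 ± 0.53 on the log2 scale (unadjusted p = 0.111, limma adjusted p = 0.962). That was the largest of the 9 differences between the treated times, and its interval ran from -0.25 to 2.09. With 1 library left out at a time, Nr1d1 ranged from -0.89 (without 4 h library a) to -0.19 (without 4 h library b) at 4 h and from 0.05 (without untreated library b) to 0.72 (without untreated library a) at 8 h. Between the treated times it ranged from 0.56 (without 4 h library b) to 1.27 (without 4 h library a). Nr1d1 shares 263 exon bases with Thra, the thyroid hormone receptor gene on the other strand, and without the strand setting of the counting, reads of that stretch cannot be assigned. Thra had 2513 and 3020 normalised counts at 4 h and 3210 and 2805 at 8 h, against 3423 and 3771 in untreated cells, all well above Nr1d1. Its log2 fold change was -0.38 ± 0.14 (SE) at 4 h and -0.26 ± 0.12 at 8 h (limma adjusted p = 0.966 and 0.885).

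Nr1d2 (ENSMUSG00000021775, chr14:18204054-18239127, minus strand) had 1610 and 1210 normalised counts in untreated cells, 1607 and 1370 at 4 h, and 1632 and 1720 at 8 h. Both libraries at 8 h lay above the others, the closest by little. The log2 fold change was 0.09 ± 0.19 (SE) at 4 h and 0.26 ± 0.18 at 8 h, with intervals from -0.35 to 0.53 and from -0.15 to 0.68. At 4 h it was -0.12 without untreated library b and -0.03 without 4 h library a. At 8 h it was 0.06 without untreated library b.

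Dbp, the gene of a PAR bZIP activator (ENSMUSG00000059824, chr7:45705088-45710203, plus strand), was close to absent. Its recovered whole numbers were 2 and 0 in untreated cells, 0 and 8 at 4 h, and 69 and 0 at 8 h. Those are 2.63 and 0, 0 and 9.04, and 38.1 and 0 normalised counts in the same order, with 1 library at 0 in every group. Its mean was 2.39 in the 4 h table and 9.95 in the 8 h table, below the minimum of 10, so Dbp was not tested and no fold change is given. Dbp shares 539 exon bases with Sphk2, a sphingosine kinase gene on the other strand, which had between 391 and 565 normalised counts in the 6 libraries.

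Of the 9 members with a mean of at least 10, 0 passed the test at 4 h and 0 at 8 h (limma, adjusted p below 0.05). Over all genes tested, 0 of 14705 (0%) passed at 4 h and 0 of 15223 (0%) at 8 h. An unadjusted p below 0.05 was found for 1 member (Cry2) at 4 h and for 0 at 8 h, against 528 of all genes tested (3.59%) at 4 h and 694 (4.56%) at 8 h. With limma-voom, another weighting of the same numbers, 2 genes passed at 4 h and 1 at 8 h, none of them a member. With 2 libraries against 2, an exact two-sided permutation test cannot give a p below 0.333, so none was run for single genes.

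At 4 h 2 members (Per3 and Cry2) lay higher without overlap between treated and untreated libraries and 1 (Arntl) lower, where 16.2% of all genes tested lay higher in this way and 16.3% lower. At 8 h 3 members (Per3, Cry2 and Nr1d2) lay higher and 1 (Arntl) lower, where 17.7% of all genes lay higher and 16.6% lower. Nothing is read from counts this small beside such shares. The shares are for each time alone. How many of all genes lay to the same side at both times was not counted, and both times share the untreated pair, so nothing is read from Per3, Cry2 and Arntl doing so. The median log2 fold change of the 9 was 0.06 at 4 h and 0.26 at 8 h, and that of all genes tested was -0.0033 and 0.0057. At 4 h 5 of the 9 values were above 0 and at 8 h 7 were.

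**Figure D2:**
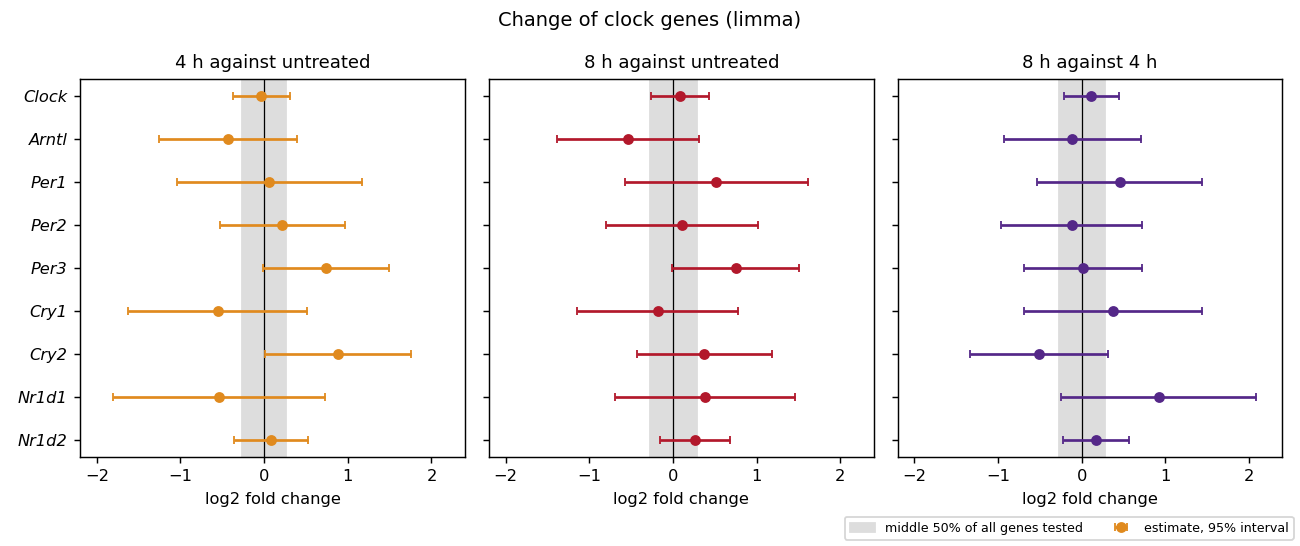
Log2 fold change (horizontal axis) of 9 clock genes at 4 h against untreated cells, 8 h against untreated cells and 8 h against 4 h. Points are limma estimates, lines their 95% intervals, and the grey band holds the middle 50% of all genes tested. The interval of Cry2 at 4 h, from 0.01 to 1.75, is the one that lies to one side of 0.

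Between the treated times, 0 of the 9 members passed the test, as did 0 of 15302 genes (0%, limma adjusted p below 0.05), and an unadjusted p below 0.05 was found for 0 members and for 682 genes (4.46%). limma-voom called 1 gene, which was no member. At 8 h 3 members (Per1, Nr1d1 and Nr1d2) lay higher than at 4 h without overlap and 1 (Cry2) lower, where 16.9% of all genes lay higher and 16.4% lower. The log2 difference was 0.46 ± 0.45 (SE) for Per1 and -0.51 ± 0.37 for Cry2. Per3, in contrast, had almost the same mean at both times, with a difference of 0.01 ± 0.32 whose interval ran from -0.69 to 0.72.

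The order of levels among the members was taken per kilobase of merged exon. That scale would not fit if the 3′ mRNA kit named in the methods was used rather than the total RNA kit named in the labels. The study's figure legend also speaks of 3′ end sequencing, and its results of poly-A selection. Nr1d2 came first with a mean of 282 normalised counts per kilobase over the 6 libraries (224 to 318), and Clock followed with 137 (125 to 158), neither range meeting that of the next gene. Per3 (75.8), Cry1 (75.3), Per2 (68.7), Per1 (67.3), Nr1d1 (52.2), Cry2 (49.8) and Arntl (39.6) formed a run in which the ranges of all neighbours overlapped. Dbp was last with 2.77, its highest library at 12.7. Within that run the order depended on the group. In untreated cells the means per kilobase were 86.3 for Cry1, 62.8 for Per1, 62.2 for Per2, 53.02 for Per3, 52.8 for Nr1d1, 49.5 for Arntl and 35.5 for Cry2. On this scale Per3 thus stood first only with the treated libraries counted in. Without division by length the order was another one. Clock then came first with 1885 (1716 to 2165), before Nr1d2 with 1525 (1210 to 1720), and these ranges overlapped. Per3 (729) stood well above Cry1 (252), and in untreated cells it led that run with 509, before Arntl with 372.

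How far 2 libraries of one group differed set what could be seen. Over the 8054 genes with a mean from 100 to 2000, the median log2 difference between the libraries was 0.31 in untreated cells, 0.31 at 4 h and 0.29 at 8 h. Of the 9 tested members, 6 exceeded that median in untreated cells, 6 at 4 h and 5 at 8 h. In each group 1 member exceeded the 90th percentile of all these genes, namely Per1 in untreated cells (1.44 against 0.93), Cry1 at 4 h (1.07 against 0.94) and Per2 at 8 h (1.00 against 0.92).

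**Figure D3:**
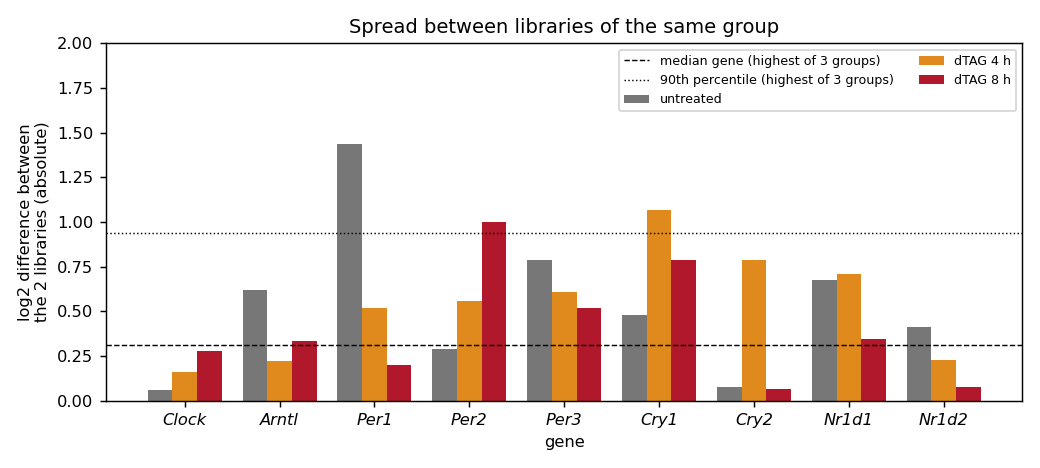
Absolute log2 difference between the 2 libraries of a group (vertical axis) for 9 clock genes, in untreated cells, at 4 h and at 8 h. The dashed and dotted lines give the median and the 90th percentile over 8054 genes with a mean from 100 to 2000, each the highest of the 3 groups, and Per1 in untreated cells stands highest at 1.44.

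The other genes of the clock and of the pathways around it were read from 5 lists, and 0 genes of any of them passed the test in any comparison. Beside these lists, Rora, which encodes the activator that competes with REV-ERB proteins for ROR elements, had 2267 and 2092 normalised counts at 4 h and 2181 and 2072 at 8 h, against 1929 and 1984 in untreated cells, with a log2 fold change of 0.15 ± 0.14 (SE) and 0.12 ± 0.13. Npas2 and Arntl2, the paralogues of Clock and Arntl, were low and varied widely, and are named here after their values were seen. Npas2 had 42.1 and 0 normalised counts in untreated cells, 20.2 and 71.2 at 4 h, and 1.11 and 18.1 at 8 h. Arntl2 had 0 and 35.4 in untreated cells, 77.7 and 52.0 at 4 h, and 23.8 and 14.9 at 8 h, so that both 4 h libraries lay above the other 4. No fold change is given for either, with 1 untreated library at 0. Of 6 further E-box and D-box repressors and outputs (Tef, Hlf, Nfil3, Bhlhe40, Bhlhe41, Ciart), 6 were tested, 3 above 0 at 4 h and 3 at 8 h, with medians of 0.03 and 0.03. The kinases, phosphatases and ubiquitin ligases that act on PER and CRY had medians of -0.08 over 10 genes at 4 h and 0.12 over 11 at 8 h, and 9 clock-controlled outputs had medians of 0.01 and 0.01.

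The 12 co-regulators of clock transcription had medians of 0.02 at 4 h and -0.0034 at 8 h. Of them 1 had an unadjusted p below 0.05 at 4 h and 1 at 8 h, beside 3.59% and 4.56% of all genes tested. At 4 h it was Ep300, the gene of a histone acetyltransferase, with 1742 and 1919 normalised counts, against 1402 and 1328 in untreated cells (log2 0.42 ± 0.16, SE, unadjusted p = 0.0267, limma adjusted p = 0.966). At 8 h it was Ncor1, the corepressor that REV-ERB proteins recruit, with 9512 and 8877 normalised counts at 8 h, against 7971 and 7412 in untreated cells (log2 0.26 ± 0.08, SE, unadjusted p = 0.0138, limma adjusted p = 0.885). Among the histone methylation genes, the log2 fold change at 4 h and at 8 h was -0.34 and -0.29 for Wdr5, a partner of ASH2L in the complexes that methylate histone H3 at lysine 4. It was 0.10 and 0.04 for Kmt2a, a methyltransferase of those complexes, and -0.32 and -0.24 for Kmt2c, another, whose 4 treated libraries lay below both untreated ones. Kmt2c was named after its values were seen, and 16.3% of all genes tested lay lower without overlap at 4 h and 16.6% at 8 h. Both times share the same untreated pair. The log2 fold change was 0.04 and -0.04 for Kdm5a, a demethylase of the same mark that binds CLOCK and BMAL1.

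Of 14 genes through which serum, cAMP or glucocorticoid reset the clock of fibroblasts, 5 had a log2 fold change above 0 at 4 h and 5 at 8 h, with medians of -0.11 and -0.07. An unadjusted p below 0.05 was found for 1 of the 14 at 4 h (Crtc2, lower), beside 3.59% of all genes tested. At 8 h it was found for 1 higher (Sik1) and 1 lower (Crtc2), beside 4.56%. Without overlap, 17.7% of all genes tested lay higher at 8 h and 16.6% lower. Sik1, the gene of a kinase that limits such resetting, was singled out after its values were seen, as was Crtc2. It had 235 and 243 normalised counts at 8 h, against 69.7 and 98.8 in untreated cells, and 67.6 and 70.04 at 4 h. The log2 fold change at 8 h was 1.51 ± 0.49 (SE), with an unadjusted p of 0.0161 and a limma adjusted p of 0.885, so that it did not pass the test either. Crtc2, the gene of a CREB coactivator, lay the other way, with 421 and 502 normalised counts at 4 h and 476 and 552 at 8 h, against 792 and 716 in untreated cells. Its log2 fold change was -0.71 ± 0.25 (SE) at 4 h and -0.55 ± 0.23 at 8 h, with unadjusted p of 0.0198 and 0.0426 and limma adjusted p of 0.966 and 0.885.

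The scale itself moved the values of all genes together, and against untreated cells it moved those of the members most. Leaving out 1 library could move a member nearly as far. Per1 at 4 h was 0.06, and it was 0.80 with no size factors and 0.78 without untreated library a. For 8 h against 4 h, leaving out 1 library took Cry1 from 0.37 to -0.16 or 0.91. With no size factors, the recovered numbers were used as they stand. The median of all genes was then 0.74 above untreated cells at 4 h and 1.25 at 8 h on the log2 scale. At 8 h 7 members (Clock, Per1, Per2, Per3, Cry2, Nr1d1 and Nr1d2) passed the test, all higher, among 6201 of all genes. The main fit tested 15223 genes at 8 h, so a large share of all genes passed too, and nothing is read from the 7. No exact share is given, because the fit with no size factors filters genes on other values. At 4 h it tested 14835 genes, against 14705 in the main fit. The recovered numbers may carry the spike-in scaling of the study, which was not tested. Relative to that shift, Per3 at 8 h lay at 2.0 against 1.25 for the median gene, Cry2 at 1.62, Clock at 1.33 and Arntl at 0.70.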

How the data were processed

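Newly made RNA was sequenced in 6 libraries, grouped by the treatment in their labels. By the methods of the study, Trim Galore trimmed the reads, STAR placed them on mm10, featureCounts assigned them to genes, and ERCC spike-in RNA set the scale of the counts. The submitters' processing notes, written for the whole project, list DESeq2, deepTools, MACS2, SAMtools, BWA and mm10 with no versions. The sources used here do not give the strand setting. A stranded total RNA kit stands in the labels, whereas a 3′ mRNA kit stands in the methods. The value used is the deposited signal, the authors' mean over 4 libraries of numbers divided by DESeq2 size factors. Fold changes, errors, p-values and adjusted p-values of the authors' own comparisons, deposited beside it, were not used, and 0 columns of other samples were left out.

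Per-library numbers were recovered by lattice reduction (Python 3.11.15, numpy 2.4.6), requiring whole numbers that give the means of both tables within a relative 6e-15. Of 400 low genes with 1 solution in each table, 400 had equal numbers in the pair present in both tables, which are the untreated libraries. Which library has which replicate number is unknown. The step was tested on simulated data. log2(normalised count + 1), so that low genes' changes are understated, was fitted with limma 3.58.1 (R 4.3.3, empirical Bayes with a trend, two-sided) over genes whose mean reached 10. Each time against untreated cells was fitted within its own table of 4 libraries, with the size factors behind its means. 8 h against 4 h, and all levels, use size factors over the 6 libraries, since the tables had been scaled separately. A call is a Benjamini-Hochberg adjusted p below 0.05 over all genes tested. Whether the 2 libraries of a group stem from separate cultures is not stated, and p-values therefore measure a spread that may be only technical. Coordinates and exon lengths are those of GENCODE M21 (GRCm38), matched by gene identifier. The members and lists were chosen with earlier results of these data known. The rule set beforehand allowed naming the 10 members, from each list genes past the threshold or else at most the 2 with the highest mean, and Thra, Ash2l, Wdr5, Kmt2a and Kdm5a. Of genes allowed by their mean, Ncor1 was described because of its unadjusted p, and others were left out. Camta1, Sphk2, Sik1, Crtc2, Ep300, Kmt2c, Npas2, Arntl2 and single marker genes were named after their values or positions were seen. Alternatives varied the scaling, the filter, the pseudocount, the model and the libraries used. Of 1 further list only Rora, Npas2 and Arntl2 are reported here.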

Additional observations from a re-analysis of the deposited data

How the results depend on the processing

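No paired analysis was possible because no column carries a replicate number. With other pseudocounts, quantile normalisation, scaling to the library sum, no filter, a higher filter, limma-voom, all 6 libraries in one fit, the 4 treated libraries alone (for 8 h against 4 h) or 1 library left out, 0 members passed the test in any comparison, and 0 genes passed with 1 library left out. limma-voom called 2 genes at 4 h (mt-Cytb and CT010467,1 as the table writes it), 1 at 8 h (mt-Cytb) and 1 for 8 h against 4 h (CT010467,1), and a mean of at least 100 called 1 for 8 h against 4 h (CT010467,1), all with log2 values between -0.03 and 0.09. limma-voom also gave Per1 -0.017 at 4 h.

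The main fit tested 15223 genes at 8 h, a number to set beside the counts that follow, though the fit with no size factors filters genes on other values. With no size factors, chosen after the data were seen, 0 genes passed at 4 h and 6201 at 8 h (6198 higher). For 8 h against 4 h 2 passed (0610009L18Rik and Msx1). Among the 6201 at 8 h were 7 members. Values then changed sign at 4 h for Clock (0.71), Arntl (0.31), Cry1 (0.18), Nr1d1 (0.20), Thra (0.36), Wdr5 (0.40), Sik1 (0.46), Crtc2 (0.029), Kmt2c (0.42) and Camta1 (0.11). At 8 h they did so for Arntl (0.70), Cry1 (1.06), Thra (0.99), Wdr5 (0.95), Kdm5a (1.20), Crtc2 (0.69), Kmt2c (1.00) and Camta1 (0.39), and for 8 h against 4 h for Arntl (0.40) and Per2 (0.39).

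Leaving out 1 library at a time turned the sign of these log2 values, with the remaining library of that group assumed to vary like the other. At 4 h they ranged for Clock from -0.12 to 0.047, for Per1 from -0.65 to 0.78, for Per2 from -0.058 to 0.49, for Nr1d2 from -0.12 to 0.29, for Wdr5 from -0.81 to 0.13 and for Kdm5a from -0.024 to 0.11. At 8 h they ranged for Clock from -0.055 to 0.22, for Per1 from -0.20 to 1.24, for Per2 from -0.39 to 0.60, for Cry1 from -0.57 to 0.21 and for Kmt2a from -0.057 to 0.13. For 8 h against 4 h they ranged for Clock from -0.023 to 0.25, for Arntl from -0.28 to 0.057, for Per2 from -0.62 to 0.38, for Per3 from -0.29 to 0.32 and for Cry1 from -0.16 to 0.91.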
